A study of Rattus norvegicus with 4 samples.

Results

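The miR-10, miR-99/100 and miR-125 microRNAs (miRNAs, small RNAs that silence messenger RNAs) were followed in small RNA libraries of rat liver. The members were the guide arms of miR-10a, miR-10b, miR-99a, miR-99b, miR-100, miR-125a and miR-125b, chosen by name, and these were 7 of the 680 miRNA names in the deposited files. The study compared tissue labelled as hepatic fibrosis with tissue labelled as normal liver, with 2 samples per group. The labels name no strain, age or sex of the rats, no agent that caused the fibrosis, and no animal for each replicate. The second file of each group held the same value for each of the 680 names (0 differences), so the 2 files were counted as 1 library, called the shared library, and its labels leave its tissue unsettled. That leaves 3 distinct libraries: replicate 1 of fibrosis, replicate 1 of normal tissue, written fibrosis-1 and normal-1 here, and the shared library. With 1 library on each side, no comparison of the tissues has a replicate check.

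The 7 members fall into a Hox-linked pair and a let-7-linked group. miR-10a and miR-10b lie inside the Hox gene clusters, which pattern the body axis, and their known targets include Hox messenger RNAs. The genes of miR-99/100 and miR-125 lie on either side of a let-7 gene in the same clusters; miR-99/100 represses components of mTOR signalling, and miR-125, the mammalian relative of lin-4, represses Lin28, a protein that blocks the maturation of let-7. In the RefSeq annotation of rat genome build GRCr8, Mir10a lay between the protein-coding genes Hoxb5 and Hoxb4 on chromosome 10, and Mir10b lay within Hoxd4 on chromosome 3. Mir99a, Mirlet7c1 and Mir125b2 were neighbours on chromosome 11, Mir100, Mirlet7a-2 and Mir125b1 on chromosome 8, and Mir99b, Mirlet7e and Mir125a on chromosome 1, the last inside the gene Spaca6.

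The mature sequences are shown to compare the members, whose Hox-linked and let-7-linked groups rest on gene position. RefSeq (GRCr8) gave a mature sequence for 6 of the 7 members, all but miR-99a. They are written 5′ to 3′ with the seed, bases 2 to 8, which pairs with target messenger RNAs, in capitals.
miR-10a: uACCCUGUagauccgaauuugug
miR-10b: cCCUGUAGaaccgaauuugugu
miR-99b: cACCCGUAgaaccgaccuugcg
miR-100: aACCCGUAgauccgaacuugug
miR-125a: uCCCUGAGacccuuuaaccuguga
miR-125b: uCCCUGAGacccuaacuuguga
These sequences are on the + strand, at chr10:81779730-81779752 for miR-10a, chr3:80035886-80035907 for miR-10b, chr1:67350070-67350091 for miR-99b, chr8:50798307-50798328 for miR-100, chr1:67350689-67350712 for miR-125a and chr11:29732588-29732609 for miR-125b. The position given for miR-125b is that of Mir125b2, and its other gene, Mir125b1, lies on chromosome 8.

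miR-99b and miR-100 shared the seed ACCCGUA, and miR-125a and miR-125b shared CCCUGAG and their first 13 bases. The entry of miR-10b starts 2 bases further in than that of miR-10a, so their seeds as annotated differed, ACCCUGU against CCUGUAG. Aligned with that shift, miR-10a and miR-10b differed over 21 bases by the substitution U12A alone, counted from the 5′ end of miR-10a. Between miR-99b and miR-100 there were 4 substitutions, C1A, A11U, C16A and C21U, counted from the 5′ end of miR-99b. miR-10a and miR-100 had an unbroken run of 11 bases in common, guagauccgaa, although their seeds differed. The rule by which reads matching several of these miRNAs were assigned is not given in the sources, so the separate values of close relatives are uncertain.

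The deposited values are reads per 1000000 reads (RPM), from which whole reads were recovered. Totals were 6951148 reads in fibrosis-1, 7070374 in normal-1 and 6357069 in the shared library. A count of 0, taken to allow up to 3 reads, allowed a level of up to 0.432, 0.424 and 0.472 RPM in these libraries. Intervals given for counts above 0 are exact two-sided 95% binomial intervals, a separate measure from that limit, and cover counting error only, since reads are not independent molecules. The liver label was checked against the hepatocyte miRNAs miR-122, miR-192 and miR-194, which together stood at 251792, 272148 and 255470 RPM in fibrosis-1, normal-1 and the shared library. The 7 members were a small part of these libraries, at 0.0396% (0.0376 to 0.0418) of the reads on listed miRNAs in fibrosis-1, 0.0443% (0.0422 to 0.0465) in normal-1 and 0.0351% (0.0331 to 0.0371) in the shared library.

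The Hox-linked pair was very uneven. miR-10a had 625 reads in fibrosis-1, 728 in normal-1 and 351 in the shared library, or 89.9, 103 and 55.2 RPM. It was the most abundant member in each library, and the shared library was the low value. miR-10b had 2, 2 and 3 reads, or 0.288, 0.283 and 0.472 RPM, with no difference detectable at this depth. miR-10a therefore made up 99.7% of the pair's reads in fibrosis-1 (98.9 to 99.96), 99.7% in normal-1 (99.01 to 99.97) and 99.2% in the shared library (97.5 to 99.8).

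Among the other Hox-linked miRNAs, almost no reads were found. miR-196a, which represses Hoxb8, had 1 read in fibrosis-1, 0 in normal-1 and 1 in the shared library. miR-196b had 2, 0 and 1 reads, miR-196c 0 in each library and miR-615 0 in each library. Of the Hox-linked miRNAs listed, miR-10a was thus the only guide arm with more than 3 reads in any library.

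In the miR-99/100 family, miR-99a was the main member. miR-99a stood at 36.4 RPM in fibrosis-1 (253 reads), 45.5 RPM in normal-1 (322 reads) and 46.1 RPM in the shared library (293 reads). Here fibrosis-1 was the low value, and the shared library sat beside normal-1. miR-99b stood at 15.5 RPM (108 reads), 12.2 RPM (86 reads) and 15.6 RPM (99 reads) in the same order, with normal-1 the low value. miR-100 had only 5, 11 and 14 reads, or 0.719, 1.56 and 2.20 RPM, far below its close relative miR-99a in all 3 libraries. miR-99a held 69.1% of the family's reads in fibrosis-1 (64.1 to 73.8), 76.8% in normal-1 (72.5 to 80.8) and 72.2% in the shared library (67.5 to 76.5).

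In the miR-125 family, miR-125b exceeded miR-125a in each library. miR-125b stood at 39.3 RPM in fibrosis-1 (273 reads), 46.8 RPM in normal-1 (331 reads) and 45.3 RPM in the shared library (288 reads). miR-125a stood at 17.8 RPM (124 reads), 19.5 RPM (138 reads) and 19.3 RPM (123 reads). Both had their lowest value in fibrosis-1. The share of miR-125b within the family was close to constant, at 68.8% in fibrosis-1 (64.0 to 73.3), 70.6% in normal-1 (66.2 to 74.7) and 70.1% in the shared library (65.4 to 74.5). miR-351, the other rat miRNA in the RefSeq table with this seed, had 1, 1 and 3 reads.

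**Figure D1:**
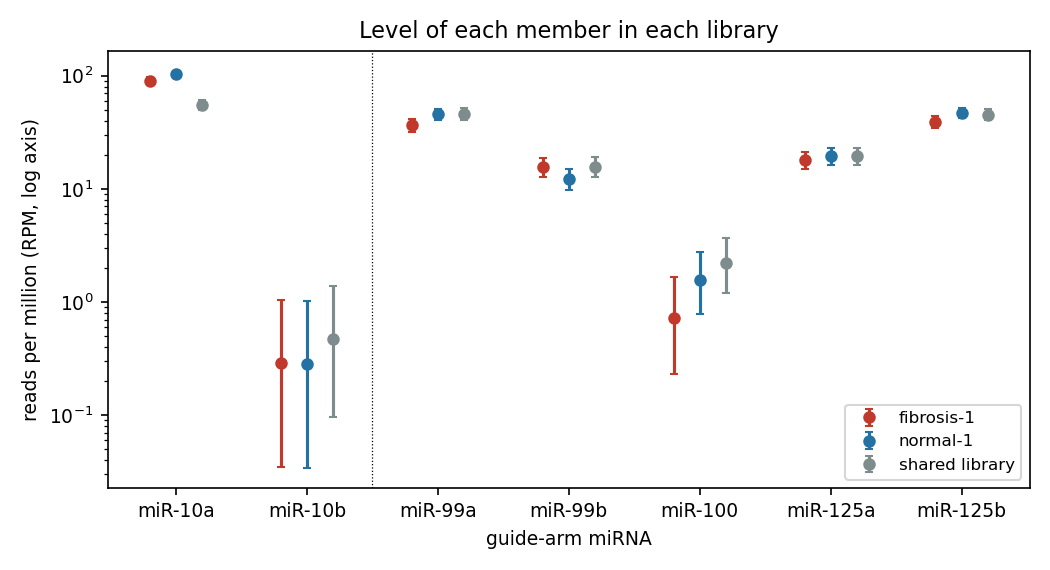
Level of the 7 members in each library, in RPM on a log axis, with exact 95% counting intervals; the dotted line separates the Hox-linked pair from the let-7-linked members. miR-10a is highest in each library and lies lower in the shared library (55.2 RPM) than in fibrosis-1 (89.9 RPM) and normal-1 (103 RPM), and miR-10b and miR-100 lie far below their relatives.

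By level the members in fibrosis-1 and normal-1 ran from miR-10a through miR-125b and miR-99a, miR-125a and miR-99b, to miR-100 and miR-10b. In the shared library miR-99a (46.1 RPM) stood just above miR-125b (45.3 RPM), with the order otherwise the same. The counting intervals of miR-125b and miR-99a overlapped in all 3 libraries, and those of miR-100 and miR-10b did too. Those of miR-125a and miR-99b overlapped in fibrosis-1 and in the shared library but not in normal-1 (16.4 to 23.1 RPM against 9.73 to 15.0 RPM). miR-10a stood clear of the next member in fibrosis-1 and normal-1. In the shared library its interval of 49.6 to 61.3 RPM overlapped that of miR-99a, 41.0 to 51.7 RPM, and that of miR-125b, 40.2 to 50.8 RPM. Levels of different miRNAs are compared here in RPM, and how efficiently each is captured in a library was not tested.

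The first comparison asked whether the members differ between fibrotic and normal liver. Between fibrosis-1 and normal-1, 0 of the 5 members averaging at least 10 RPM differed by at least 1.5-fold, where 7.89% of all 76 such miRNAs did. miR-10a was lower in fibrosis-1 at a ratio of 0.873 (0.783 to 0.973), miR-99a at 0.799 (0.675 to 0.945), miR-125b at 0.839 (0.712 to 0.988) and miR-125a at 0.914 (0.711 to 1.17). miR-99b was the only member of the 5 above 1, at 1.28 (0.953 to 1.72). The intervals of miR-10a, miR-99a and miR-125b excluded 1, so 3 of 5 members did so, where 57.9% of the 76 miRNAs did. The median ratio of the 5 was 0.873, beside 0.926 for all 76. miR-100 (0.462, 0.126 to 1.44) and miR-10b (1.02, 0.0737 to 14.0) rest on too few reads for a difference to be detected.

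These small ratios depended in part on scaling. With TMM factors the intervals of miR-10a (0.821 to 1.02) and miR-125b (0.746 to 1.03) included 1, and that of miR-99a (0.707 to 0.990) did not. Upper-quartile factors moved the ratios the other way. The intervals of miR-10a (0.746 to 0.926), miR-125b (0.678 to 0.940) and miR-99a (0.643 to 0.899) then each excluded 1. The 4-library fit as labelled, limma on log2(RPM + 1) with Benjamini-Hochberg adjustment, called 0 of 294 miRNAs (0%) and 0 of the 7 members. At an unadjusted p under 0.05 there were 4 miRNAs in that fit, 1 by edgeR and 0 by DESeq2. Its log2 differences, fibrosis over normal, ranged over the members from -0.29 for miR-100 (SE 0.41) to 0.16 for miR-99b (SE 0.37), each with a limma adjusted p of 1. The shared library stands in both groups of this fit, which could therefore call almost nothing. The fit's count of 0 is no sign that the tissues are alike.

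The second comparison set the Hox-linked pair against the let-7-linked members within each library. In the deposited RPM the ratio of fibrosis-1 to normal-1 was 0.874 (0.784 to 0.973) for summed miR-10 and 0.874 (0.792 to 0.964) for the summed let-7-linked members. With TMM factors these were 0.915 (0.821 to 1.02) and 0.916 (0.830 to 1.01), with intervals that included 1. With upper-quartile factors they were 0.831 (0.746 to 0.926) and 0.832 (0.754 to 0.917), with intervals that excluded 1. The balance of reads within a library, in which scaling has no part, was nearly equal in both. In fibrosis-1 there were 627 miR-10 reads for 763 let-7-linked reads, or 0.822 (0.738 to 0.915). In normal-1 there were 730 for 888, or 0.822 (0.744 to 0.908). The ratio of these balances was 0.9996 (exact conditional 95% interval 0.863 to 1.16), so a shift of the balance within that interval was not detectable at this depth.

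The shared library departed from both. It had 354 miR-10 reads for 817 let-7-linked reads, or 0.433 (0.381 to 0.491). Its balance was 0.527 times that of fibrosis-1 (0.446 to 0.623) and 0.527 times that of normal-1 (0.448 to 0.619). The same held against each family alone: miR-10 per miR-99/100 read was 1.71, 1.74 and 0.872 in fibrosis-1, normal-1 and the shared library, and miR-10 per miR-125 read was 1.58, 1.56 and 0.861. Fibrosis-1 and normal-1 were alike in this balance within counting error, and the shared library lay well below them.

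**Figure D2:**
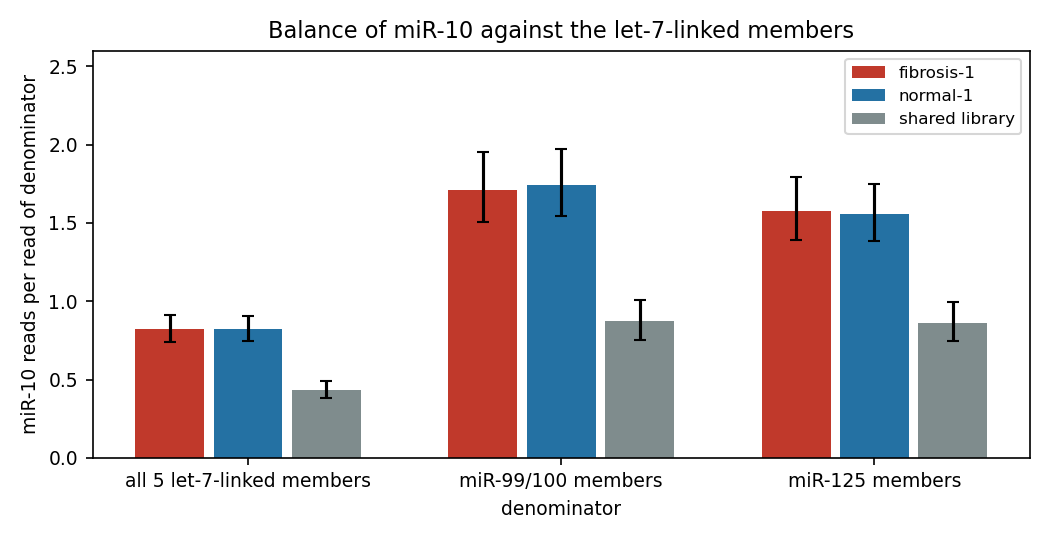
Reads of miR-10a and miR-10b per read of the let-7-linked members, of the miR-99/100 members and of the miR-125 members, in each library; bars start at 0 and error bars are exact 95% counting intervals. Against all 5 let-7-linked members the ratio is 0.822 in fibrosis-1 and in normal-1, and 0.433 in the shared library.

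Most of the shift lay in miR-10a. In the shared library miR-10a stood at 0.614 times its level in fibrosis-1 (0.537 to 0.701) and 0.536 times that in normal-1 (0.471 to 0.610). The summed let-7-linked members stood at 1.17 times (1.06 to 1.29) and 1.02 times (0.929 to 1.13) these levels. Of the 5 members averaging at least 10 RPM, miR-10a was the only one past 1.5-fold in each pair with the shared library, 1 of 5 beside 19.4% of 72 miRNAs against fibrosis-1 and 27.4% of 73 against normal-1. Ranked from the lowest ratio, miR-10a was number 7 of 72 and number 5 of 73. The 4 let-7-linked members in this range had ratios from 1.002 to 1.27 against fibrosis-1 and from 0.968 to 1.28 against normal-1.

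**Figure D3:**
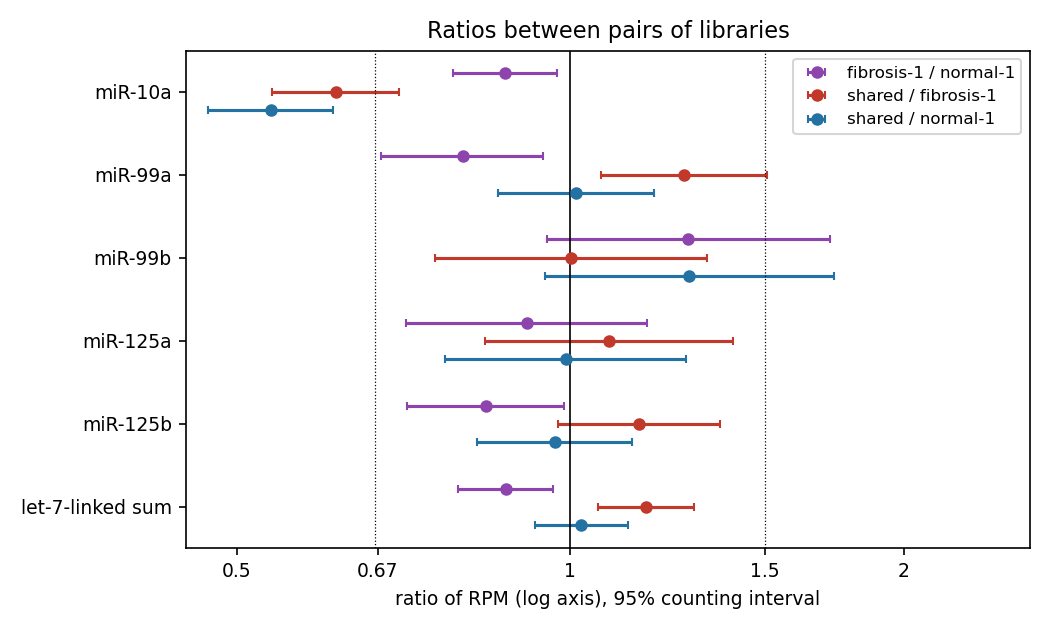
Ratio of RPM between each pair of libraries for the 5 members averaging at least 10 RPM and for the summed let-7-linked members, on a log axis, with 95% counting intervals and dotted lines at 1.5-fold. Only miR-10a lies past 1.5-fold, in both pairs that hold the shared library (0.614 and 0.536).

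**Figure D4:**
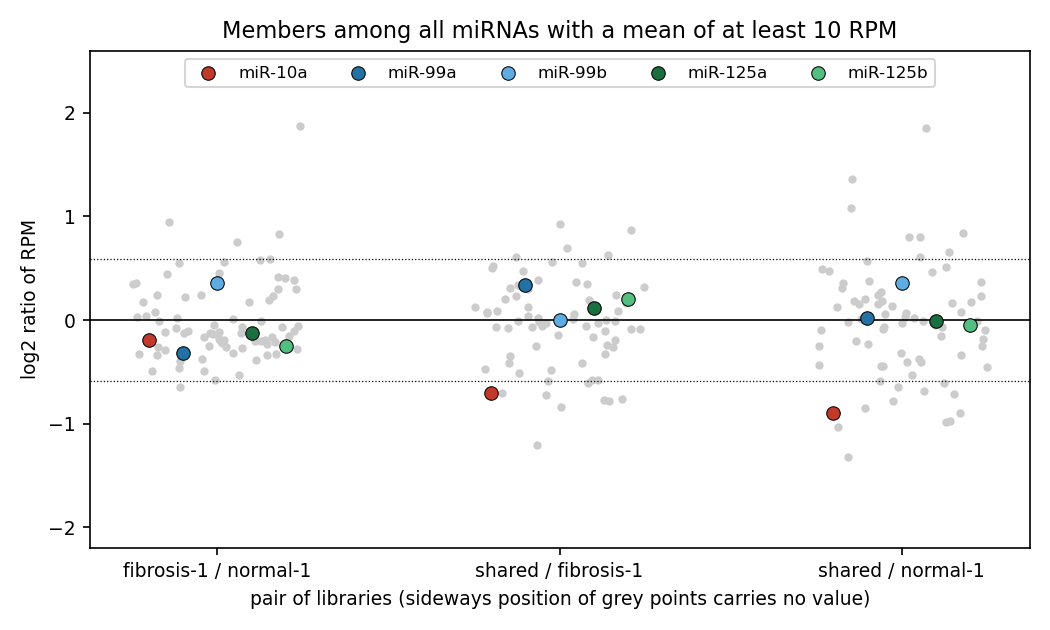
Log2 ratio of RPM in each pair of libraries for all miRNAs averaging at least 10 RPM (grey, 76, 72 and 73 miRNAs) with the 5 members in colour and dotted lines at 1.5-fold. The members lie inside the lines between fibrosis-1 and normal-1, and miR-10a falls below the lower line in the other pairs.

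Since the tissue of the shared library is unsettled, the direction of miR-10a between the tissues hangs on its label. The deposited column header equals the sample's title for fibrosis replicate 2 but not for normal replicate 2. That does not settle the tissue. With the shared library in place of fibrosis-1, summed miR-10 was lower in fibrosis at 0.539 (0.474 to 0.613). With it in place of normal-1, summed miR-10 was higher in fibrosis at 1.62 (1.42 to 1.85). Marker miRNAs of other cells moved too. The 5 mesenchymal markers, miRNAs of stellate, smooth muscle and fibroblast cells, summed to 669 RPM in fibrosis-1, 466 RPM in normal-1 and 1009 RPM in the shared library. miR-199a-3p carried this sum, at 592, 350 and 903 RPM. The others did not follow it together: miR-143 (62.1, 97.3 and 91.2 RPM), miR-145 (9.21, 13.7 and 6.92 RPM) and miR-199a-5p (2.01, 2.40 and 1.42 RPM) were highest in normal-1, and miR-214 (3.31, 2.55 and 5.66 RPM) was highest in the shared library. The 4 leukocyte markers summed to 41.9, 28.0 and 59.6 RPM, of which miR-142-5p alone made up 39.4, 26.4 and 56.0 RPM, while miR-142-3p of the same hairpin had 3, 5 and 4 reads. In the same order the 2 endothelial markers summed to 7.77, 6.51 and 10.9 RPM, the 2 erythroid markers to 2.88, 7.78 and 2.05 RPM, and the 5 epithelial markers to 12.1, 11.9 and 8.65 RPM. Of these markers only miR-141 was at 0, in fibrosis-1 and in normal-1. Their part in the miR-10a values was not tested. In bulk tissue, fewer cells of a type and less RNA per cell cannot be told apart.

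The miRNAs whose levels followed miR-10a most closely across the 3 libraries were miR-423*, miR-378 and miR-29b, of 73 miRNAs averaging at least 10 RPM. Likeness was the Euclidean distance of log2 RPM centred on each miRNA's mean, 0.059, 0.091 and 0.10. miR-423* stood at 1075, 1237 and 630 RPM in fibrosis-1, normal-1 and the shared library. miR-378, which lies within Ppargc1b, stood at 488, 511 and 283 RPM. Nearest to miR-125b, the let-7-linked member with the highest mean over the 3 libraries, were miR-101b, miR-29a and let-7f, at distances of 0.030, 0.087 and 0.089. With 3 libraries these distances are a description of the libraries only.

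The let-7 members of the same clusters stood far above their neighbours. let-7c was at 83074 RPM in fibrosis-1, 70277 RPM in normal-1 and 82544 RPM in the shared library. Its reads, from all let-7c genes, were 2282, 1543 and 1791 times those of miR-99a, whose gene lies beside Mirlet7c1. let-7e, the scarcest of the 3, was at 1695, 1454 and 2154 RPM, or 109, 120 and 138 times miR-99b. let-7a was at 50226, 54540 and 57329 RPM. let-7c, let-7a and miR-125b can each come from more than 1 gene, so their reads cannot be assigned to a single cluster. let-7a itself lay at 0.921 (0.917 to 0.925) between fibrosis-1 and normal-1. Such narrow intervals cover counting error only, and the ratios of let-7a, let-7c and let-7e were not recalculated with another scaling.

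Within a cluster, the flanking miRNAs were closer to each other than to let-7. miR-99a and miR-125b were nearly equal, with 0.927 reads of miR-99a per read of miR-125b in fibrosis-1 (0.778 to 1.10), 0.973 in normal-1 (0.832 to 1.14) and 1.02 in the shared library (0.862 to 1.20). miR-99b and miR-125a, whose genes lie close together, gave 0.871 (0.667 to 1.14), 0.623 (0.470 to 0.822) and 0.805 (0.611 to 1.06). miR-100 gave only 0.0183 (0.00590 to 0.0433), 0.0332 (0.0164 to 0.0602) and 0.0486 (0.0262 to 0.0829) reads per read of miR-125b. Between fibrosis-1 and normal-1, only let-7c lay on the other side of 1 from both of its neighbours. let-7c, summed over its genes, was higher at 1.18 (1.178 to 1.187) where miR-99a and miR-125b were lower. let-7e was higher at 1.17 (1.13 to 1.20), with miR-99b on the same side at 1.28 and miR-125a on the other at 0.914. The intervals of both neighbours included 1. In the remaining cluster let-7a (0.921), miR-100 (0.462) and miR-125b (0.839) were all below 1.

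**Figure D5:**
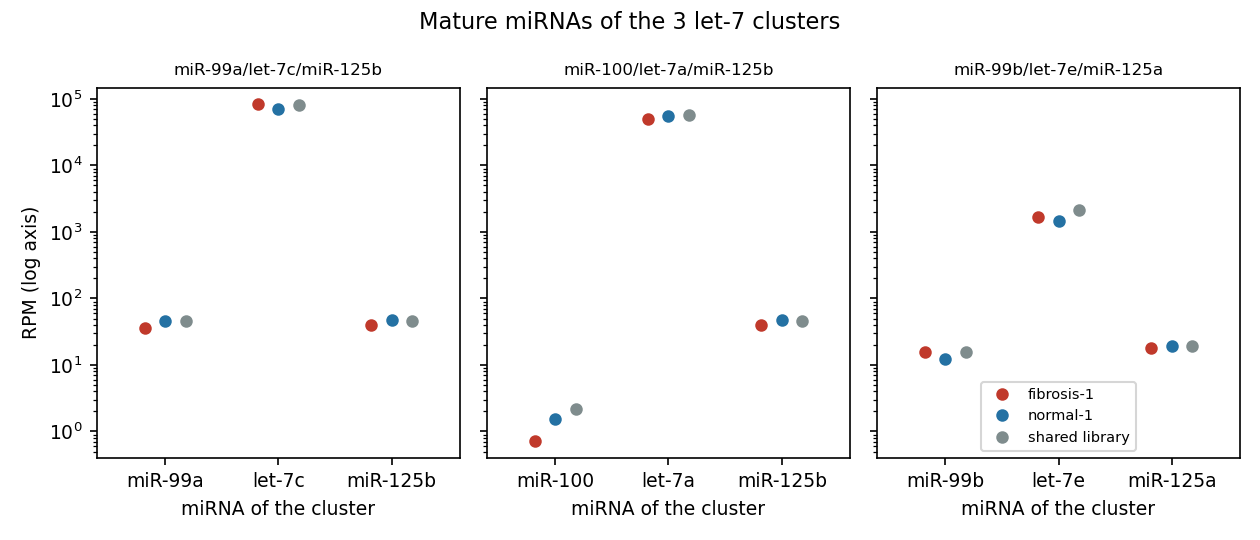
RPM on a log axis of the mature miRNAs named for each of the 3 let-7 clusters, with 1 point per library; miR-125b appears in 2 panels because its name covers 2 genes. let-7 exceeds its neighbours in each panel, miR-99a and miR-125b lie together between 36.4 and 46.8 RPM, and miR-100 lies between 0.719 and 2.20 RPM.

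The other arms of these hairpins, which are usually degraded after processing, were nearly absent. They summed to 21 reads in fibrosis-1, 19 in normal-1 and 12 in the shared library, or 1.49% (0.924 to 2.27), 1.16% (0.700 to 1.81) and 1.01% (0.525 to 1.77) of the reads of both arms. miR-99a* had more of them than any other row, with 15, 12 and 5 reads, or 5.60% (3.17 to 9.06), 3.59% (1.87 to 6.19) and 1.68% (0.547 to 3.87) of the reads of its hairpin. miR-10a-3p had 2, 1 and 2 reads, too few to show whether it followed miR-10a into the shared library. miR-10b* and the row miR-125b-3p had 0 reads in each library.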

How the data were processed

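Libraries were prepared from total RNA of rat liver with Illumina's kit for small RNA, as the labels' protocols state. CASAVA 1.4 and genome build rn5 are listed in the submitters' processing notes; no aligner, miRNA annotation version or rule for ambiguous reads is given in the sources. The deposited values are RPM computed by the authors. They are not counts, but dividing by the worth of 1 read gave whole reads for 100% of values above 0, within 0.01 reads. In 3 files the column header equals the sample's title, and in that of normal replicate 2 it does not.

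Groups came from the tissue label. Ratios between single libraries carry exact (Clopper-Pearson) intervals and no test. The planned 4-library fit used limma 3.58.1 (R 4.3.3) on log2(RPM + 1) and was tested on simulated data. The simulated libraries were separate, with none shared between groups, so that test does not show what the fit can call here. On the recovered reads, edgeR 4.0.16 and DESeq2 1.42.0 served as alternatives. Intervals were computed in Python 3.11.15 with scipy 1.17.1. Named miRNAs are the members, the other arms of their hairpins, their cluster let-7, other Hox-linked miRNAs, seed sharers, cell type markers and the 3 nearest patterns. Members and lists were chosen with earlier results of these data known. Sequences are from RefSeq, GRCr8, and no coordinates of rn5 were used.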

Additional observations from a re-analysis of the deposited data

How the results depend on the processing

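The ratios of single members between fibrosis-1 and normal-1 stayed within their counting interval in 46 of 49 recalculations with another scaling or another library. The 3 that left it used the shared library: miR-10a in place of either replicate 1, and miR-99a in place of fibrosis-1. Another scaling multiplied the ratio of each member by the same small factor, so it could hardly take a ratio out of its interval. For miR-10a the scalings gave 0.831 to 0.915, inside its interval of 0.783 to 0.973. The count of 46 of 49 is therefore a weak check. The intervals of miR-10b (0.0737 to 14.0) and miR-100 (0.126 to 1.44) are so wide that they could hardly be left. Leaving out fibrosis or normal replicate 1, with the shared library in its place, gave ratios of 0.539 and 1.62 for summed miR-10, 1.08 and 0.824 for summed miR-99/100, 0.975 and 0.883 for summed miR-125, 1.02 and 0.854 for the summed let-7-linked members, and 0.527 and 1.90 for miR-10 over the let-7-linked members. The members past 1.5-fold then numbered 1 of 5 and 1 of 5, beside 20 of 73 miRNAs (27.4%) and 14 of 72 (19.4%). With a minimum mean of 1 RPM, 1 of 6 members (miR-100, on 5 and 11 reads) passed 1.5-fold between fibrosis-1 and normal-1. Over all miRNAs 28 of 147 (19%) did. With a minimum of 50 RPM, 0 members and 2 miRNAs did, and the total at that minimum is not given here. Scaling left 0 members past 1.5-fold with 8 higher and 0 lower over all miRNAs by TMM and 4 and 3 by upper-quartile factors, against 5 and 1 in the deposited RPM. With the replicate number as a block the 4-library fit called 0 miRNAs; as replicate 2 is the same library in both groups, the pairing could not be checked. Alternatives that kept all 4 samples also called 0, which shows little, since the shared library stood in both groups of each. Depth limits miR-10b, miR-100 and the other arms, each with 15 reads or fewer in any library.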
